A study of Drosophila mauritiana and Drosophila melanogaster and Drosophila simulans with 12 samples.

Results

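The genes described here encode the nuclear subunits of the mitochondrial respiratory chain and the ATP synthase, together with their paralogs, and were measured by RNA-seq in eye-antennal imaginal discs of 3 *Drosophila* species. Members were chosen by their FlyBase symbol, which had to begin with ND-, UQCR-, COX, ATPsyn or Cyt-c, among the genes of the reciprocally re-annotated sets, in which the gene models of the species compared have matched lengths. The rule gave 79 of the 13311 genes present in both reciprocal count tables. Of these, 57 were taken as main subunits and 22 as paralogs, a paralog being a gene whose symbol is that of a main subunit followed by L or by L and a digit, to which Cyt-c-d, a second cytochrome c gene, was added. The set was put together with counts of these libraries in view, and UQCR-11L was picked out of it by its counts. The values of UQCR-11L and the gap in level between main subunits and paralogs are therefore given as a description, with no test. Another 5 symbols that fit the rule (COX4L, Cyt-c-p, ND-AGGG, ND-MLRQ and UQCR-11) had no row in the reciprocal tables under the identifier that the gene name table gives them and were not analysed here, and whether a row under another identifier holds one of them was not tested.

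Oxidative phosphorylation is carried out in the inner mitochondrial membrane. Complex I takes electrons from NADH, complex III passes them to cytochrome c, complex IV hands them to oxygen, and the proton gradient built on the way drives ATP synthesis in complex V. Most subunits are encoded in the nucleus and are needed by every cell with mitochondria, and several of them have a duplicate gene in *Drosophila*, many of which are known from *D. melanogaster* as genes of the testis.

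Discs were taken from female late L3 larvae at 120 h after egg laying, raised at 25 °C, with 40 to 50 discs and 500 ng of RNA per library. The 4 groups of 3 biological replicates were *D. melanogaster* OreR (replicates A to C) and *D. mauritiana* TAM16 (A to C), both sequenced as 50 bp single-end reads, and *D. simulans* YVF (A to C) and *D. mauritiana* TAM16 (D to F), both sequenced as 100 bp paired-end reads. YVF stands for the *D. simulans* stock yellow vermillion forked. Each species was represented by 1 strain, so that species and strain, with its genotype, cannot be told apart. Species were compared only within a read type. Read type was compared within *D. mauritiana*, where it cannot be told apart from the separate set of discs it was applied to.

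The 6 single-end libraries held 17170747 to 34063962 counts in the reciprocal tables, and the 6 paired-end libraries held 121468882 to 162437570. All 12 eye-antennal disc markers, among them ey, so and ato, were above 5 CPM (counts scaled to a library total of 1000000) in every library. Markers of other tissues were present as well. Summed over 5 fat body genes (Lsp1alpha, Lsp1beta, Lsp2, Fbp1 and Fbp2), they reached 4950, 133 and 4252 CPM in *D. melanogaster* A to C, against 530, 787 and 2106 CPM in *D. mauritiana* A to C, and they lay between 15.2 and 129 CPM in *D. simulans* and between 32.8 and 41.4 CPM in the paired-end *D. mauritiana* libraries. Summed over 7 muscle genes with a row, they lay between 1115 and 2016 CPM in *D. melanogaster* and between 1168 and 1581 CPM in single-end *D. mauritiana*, and between 3709 and 4449 CPM in *D. simulans* and between 3070 and 3590 CPM in paired-end *D. mauritiana*. Muscle is rich in mitochondria, and the part of these tissues in the levels below was not tested. In such bulk samples fewer cells of a type and less RNA per cell cannot be told apart.

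The paralogs differed from the main subunits in gene structure and position. In the *D. mauritiana* gene models 12 of 22 paralogs had a single coding exon (54.5%), against 8 of 57 main subunits (14.0%) and 20.8% of the 13311 genes. Among the 20 paralogs with a main counterpart in the tables, 11 had fewer exons than the counterpart, 8 had as many and 1, COX6AL2, had more. ATPsynepsilonL had 1 coding exon beside 3 in sun, which encodes the epsilon subunit of the ATP synthase, and Cyt-c1L had 1 beside 6 in Cyt-c1. None of the 22 paralogs lay on the X chromosome of *D. melanogaster*, against 12 of the 57 main subunits (21.1%) and 15.1% of the 13045 genes with a known arm. Of the 17 different counterparts of these 20 paralogs, 5 were X-linked, and 14 of the 20 paralogs lay on another chromosome arm than the counterpart.

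Levels are given as RPKM, the CPM per kilobase of gene model. Of the 57 main subunits, 56 had at least 100 counts in each of the 12 libraries. Together the main subunits took 1.10% ± 0.084 of all counts in *D. melanogaster* and 1.04% ± 0.157 in single-end *D. mauritiana*, and 0.803% ± 0.069 in *D. simulans* and 0.729% ± 0.0469 in paired-end *D. mauritiana* (SD, n = 3 each). The 22 paralogs took at most 0.00796% of the counts of a library.

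By their medians the complexes stood in the same order in the 4 groups, from I to III, IV and V. The median complex I subunit had 199 ± 34.5 RPKM in *D. melanogaster* and 198 ± 45.7 in single-end *D. mauritiana*, and 111 ± 12.7 in *D. simulans* and 104 ± 9.48 in paired-end *D. mauritiana* (mean ± SD of the library medians, 31 genes). The 6 complex III subunits had medians of 295 ± 48.9 RPKM in *D. melanogaster* and 361 ± 110 in single-end *D. mauritiana*, and of 184 ± 15.4 in *D. simulans* and 183 ± 19.7 in paired-end *D. mauritiana*. The 8 complex IV subunits had medians of 660 ± 90.3 RPKM in *D. melanogaster* and 585 ± 140 in single-end *D. mauritiana*, and of 403 ± 70.6 in *D. simulans* and 325 ± 26.8 in paired-end *D. mauritiana*. Complex V, with 11 subunits, had medians of 730 ± 96.1 RPKM in *D. melanogaster* and 721 ± 144 in single-end *D. mauritiana*, and of 409 ± 50.7 in *D. simulans* and 393 ± 34.6 in paired-end *D. mauritiana*. Complexes IV and V were thus neighbours whose medians overlapped within their SD in *D. melanogaster*, in single-end *D. mauritiana* and in *D. simulans*.

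**Figure D1:**
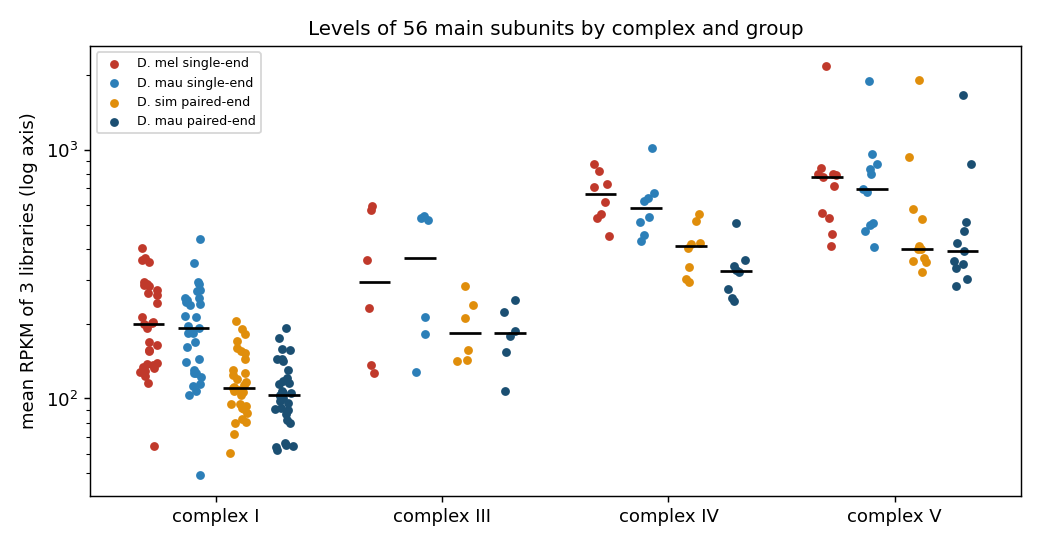
Mean RPKM over 3 libraries (log axis) of 56 main subunits, each point a gene, by complex and group, with the median gene as a black bar (D. mel, D. mau and D. sim stand for *D. melanogaster*, *D. mauritiana* and *D. simulans*). Complex I subunits lie lowest, and ATPsynC is the highest point in each group, between 1664 and 2163 RPKM.

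ATPsynC, the membrane ring subunit of the ATP synthase, which is present in many copies per complex, was the main subunit with the highest level in every group. It averaged 2163 ± 124 RPKM in *D. melanogaster* and 1881 ± 265 in single-end *D. mauritiana*, and 1898 ± 194 in *D. simulans* and 1664 ± 163 in paired-end *D. mauritiana* (SD, n = 3 each). ND-75, the large iron-sulfur subunit of complex I and the longest main subunit with 2196 nt, was the lowest of the 56 main subunits above 100 counts in 3 of the groups, with 64.5 ± 13.7 RPKM in *D. melanogaster* and 49.2 ± 6.45 in single-end *D. mauritiana*, 60.3 ± 1.94 in *D. simulans*, and had 66.4 ± 2.96 in paired-end *D. mauritiana*, where ND-18 was lowest with 62.2 RPKM. ND-B8, a small subunit of complex I by its symbol, was the exception among the main subunits. It had 1, 9 and 1 counts in *D. melanogaster* and 1, 0 and 2 in single-end *D. mauritiana*, and 0, 4 and 0 in *D. simulans* and 0, 2 and 12 in paired-end *D. mauritiana*.

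Paralogs were rare beside their main counterparts. Of 20 paralogs with a counterpart in the tables, 18 stayed below 1% of its RPKM in each of the 12 libraries, and 9 of the 22 paralogs had at most 10 counts in every library. UQCR-14L, UQCR-6.4L, COX6AL and ATPsynGL had no count in the 6 single-end libraries and at most 4 in a paired-end library. At 1% or above in at least 1 library were ATPsynepsilonL and COX5BL. UQCR-11L had no counterpart in the tables. By its group mean it lay within the range of the 56 main subunits above 100 counts in single-end *D. mauritiana* (158 RPKM). In *D. melanogaster*, *D. simulans* and paired-end *D. mauritiana* it lay below the lowest of them (53.6, 0.0367 and 55.8 RPKM).

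**Figure D2:**
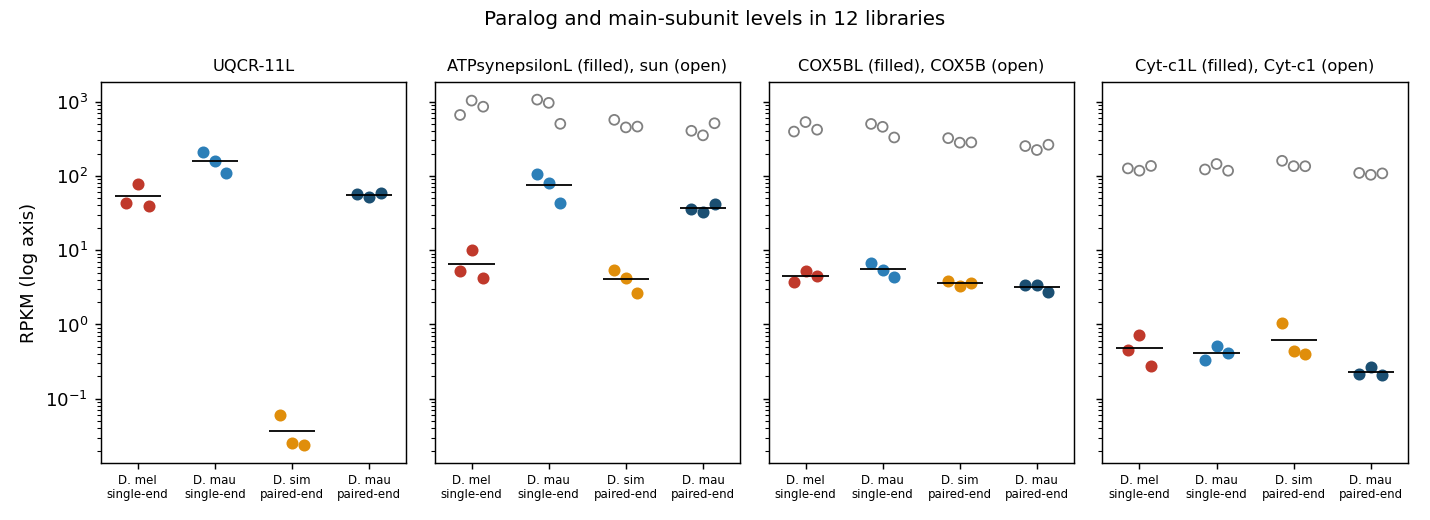
RPKM (log axis) of UQCR-11L, ATPsynepsilonL, COX5BL and Cyt-c1L in the 12 libraries (filled points, with the group mean as a line) and of the main counterparts sun, COX5B and Cyt-c1 (open points). UQCR-11L lies between 108 and 209 RPKM in single-end *D. mauritiana* and below 0.061 RPKM in *D. simulans*, while each open point lies above the filled point of its paralog in the same library.

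ATPsynepsilonL (FBgn0051477, a gene of 1 coding exon and 195 nt on arm 3R, 14909325 to 14909519, of the published *D. mauritiana* genome) was lower in *D. melanogaster* and in *D. simulans* than in *D. mauritiana*. It had 28, 34 and 20 counts in *D. melanogaster* A to C, against 364, 532 and 212 counts in *D. mauritiana* A to C. Per length this was 5.20, 10.2 and 4.17 RPKM in *D. melanogaster*, against 106, 80.1 and 42.8 RPKM in *D. mauritiana*. The groups did not overlap. It had 133, 121 and 85 counts in *D. simulans* A to C, against 862, 910 and 1272 counts in *D. mauritiana* D to F, which were 5.41, 4.17 and 2.68 RPKM against 36.4, 32.6 and 41.6 RPKM. These groups did not overlap either. The quasi-likelihood test of edgeR, adjusted over all genes by the Benjamini-Hochberg method, gave a log2 fold change of -3.61 ± 0.53 (SE) for *D. melanogaster* over *D. mauritiana* (adjusted p = 0.0044, n = 3 each) and of -3.13 ± 0.30 for *D. simulans* over *D. mauritiana* (adjusted p = 0.000586). Leaving out each library in turn, the adjusted p from edgeR stayed between 0.00319 and 0.0230 in the *D. melanogaster* comparison and between 0.00107 and 0.00358 in the *D. simulans* comparison.

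Set against sun in the same library, ATPsynepsilonL stood at 0.752% ± 0.249 of its RPKM in *D. melanogaster* and at 8.93% ± 0.89 in single-end *D. mauritiana*, and at 0.819% ± 0.206 in *D. simulans* and at 8.79% ± 0.598 in paired-end *D. mauritiana* (SD, n = 3 each). The share in *D. mauritiana* was the same within the SD for both read types. Whether reads of sun were counted on ATPsynepsilonL was not tested. sun itself had a log2 fold change of -0.031 ± 0.34 for *D. melanogaster* over *D. mauritiana* and of 0.26 ± 0.16 for *D. simulans* over *D. mauritiana* (edgeR, adjusted p = 0.965 and 0.276). Markers of the testis, the tissue known for many such duplicates in *D. melanogaster*, were close to absent in these female discs. Of 13 listed genes (among them bam, aly, can, dj and betaTub85D) 10 or 11 were below 1 CPM in every library of a group, and the sum of all 13 lay between 21.5 and 23.9 CPM in *D. melanogaster* and between 19.7 and 23.6 in single-end *D. mauritiana*, and between 22.2 and 25.7 in *D. simulans* and between 26.7 and 31.2 in paired-end *D. mauritiana*. Of this mia alone gave between 16.6 and 28.5 CPM in a library, while Mst84Db had no count in *D. melanogaster*, in single-end *D. mauritiana* and in *D. simulans*.

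UQCR-11L (FBgn0050354, a gene of 1 coding exon and 261 nt on arm 2R, 3086727 to 3086987, of the same genome) is by its symbol a paralog of the small complex III subunit UQCR-11. It had 311, 350 and 254 counts in *D. melanogaster* A to C, against 959, 1392 and 716 counts in *D. mauritiana* A to C. In the paired-end libraries it had 2, 1 and 1 counts in *D. simulans* A to C, against 1784, 1938 and 2422 counts in *D. mauritiana* D to F. Neither pair of groups overlapped, and *D. simulans* was almost without reads. Its libraries held several times more counts than those of *D. melanogaster*, but a paired-end fragment can give several of these counts. Per length the values were 43.1, 78.1 and 39.6 RPKM in *D. melanogaster*, against 209, 157 and 108 RPKM in *D. mauritiana*, and 0.0607, 0.0257 and 0.0236 RPKM in *D. simulans*, against 56.3, 51.9 and 59.1 RPKM in *D. mauritiana*. As a share of the median complex III main subunit of the same library, UQCR-11L stood at 17.8% ± 4.40 in *D. melanogaster* and 43.9% ± 4.53 in single-end *D. mauritiana*, and at 0.0195% ± 0.00953 in *D. simulans* and 30.6% ± 1.37 in paired-end *D. mauritiana* (SD, n = 3 each).

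The log2 fold change of UQCR-11L was -1.59 ± 0.39 (SE) for *D. melanogaster* over *D. mauritiana*. For *D. simulans* the summed counts, scaled to library totals, were 1594-fold lower than in *D. mauritiana*, given as a description. That ratio rests on 4 counts in *D. simulans*, and in the paired-end libraries a fragment can give several counted reads. The counts of UQCR-11L were identical under the direct re-annotation in all 12 libraries, and under the published annotation in 11 of them. Because UQCR-11 had no row under its identifier in the tables used here, reads placed on UQCR-11L could not be set against those of its main counterpart, and whether reads of both genes were counted on UQCR-11L was not tested.

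COX5BL, the paralog of the complex IV subunit COX5B, was the paralog with the most even level. It had 48, 42 and 52 counts in *D. melanogaster* A to C and 56, 85 and 52 in *D. mauritiana* A to C, and 229, 230 and 276 in *D. simulans* A to C and 192, 225 and 200 in *D. mauritiana* D to F. Both pairs of groups overlapped after scaling to library size. Relative to COX5B it stood at 1.01% ± 0.071 in *D. melanogaster* and 1.28% ± 0.104 in single-end *D. mauritiana*, and at 1.22% ± 0.056 in *D. simulans* and 1.29% ± 0.238 in paired-end *D. mauritiana* (SD, n = 3 each). The log2 fold changes, -0.33 ± 0.36 for *D. melanogaster* and 0.23 ± 0.21 for *D. simulans* over *D. mauritiana*, did not pass edgeR's test (adjusted p = 0.601 and 0.458).

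Cyt-c1L, the paralog of the complex III subunit cytochrome c1, had 13, 13 and 7 counts in *D. melanogaster* A to C and 6, 18 and 11 in *D. mauritiana* A to C. It had 136, 68 and 67 counts in *D. simulans* A to C, against 27, 40 and 34 in *D. mauritiana* D to F, with *D. simulans* A standing above the other libraries. The paired-end groups did not overlap, but the log2 fold change of 1.48 ± 0.47 missed the threshold (edgeR, adjusted p = 0.0582), while it passed with DESeq2 (adjusted p = 0.0278) and with a filter of 10 counts in every library (adjusted p = 0.0488).

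Most other paralogs had too few reads for the fit across all genes, which kept 4 of 22 paralogs in the *D. melanogaster* comparison and 8 of 22 in the *D. simulans* comparison. COX7AL, a paralog of the complex IV subunit COX7A, had 14, 10 and 6 counts in *D. melanogaster* and none in the 3 single-end *D. mauritiana* libraries. Its summed counts, scaled to library totals, were at least 11.1-fold higher in *D. melanogaster* (against a floor of 3 counts over the group). Such a floor covers counting error only and not the spread between replicates. In the paired-end libraries COX7AL had 0, 4 and 4 counts in *D. simulans* and 1, 8 and 2 in *D. mauritiana*. ND-20L, a paralog of the complex I subunit ND-20, had 3, 4 and 3 counts in *D. melanogaster* and none in single-end *D. mauritiana*, at least 3.70-fold higher by the same floor. It had 6, 16 and 15 counts in *D. simulans* and 0, 2 and 0 in paired-end *D. mauritiana*. The ratio of summed counts, scaled to library totals, was 17.8, with a 95% counting interval of 4.60 to 153 (exact conditional binomial). Such an interval covers counting error only and not the spread between replicates. In the paired-end libraries, where a fragment can give several counted reads, it is too narrow. ND-20L was thus seen in each library of *D. melanogaster* and *D. simulans* and in 1 of the 6 *D. mauritiana* libraries.

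Cyt-c-d, the cytochrome c gene known from the male germline of *D. melanogaster*, had 2, 3 and 1 counts in *D. melanogaster* and 0, 3 and 0 in single-end *D. mauritiana*, and 6, 23 and 27 in *D. simulans* and 0, 4 and 11 in paired-end *D. mauritiana*. The paired-end groups overlapped, and the log2 fold change of 1.86 ± 0.95 did not pass edgeR's test (adjusted p = 0.198). ATPsynbetaL (19, 8 and 20 counts in *D. simulans*, 10, 2 and 0 in *D. mauritiana* D to F) and ND-51L1 (3, 48 and 28 counts in *D. simulans*, 40, 42 and 26 in *D. mauritiana* D to F) overlapped likewise and were not called. COX6AL2 had 15, 8 and 35 counts in *D. simulans*, against 2, 4 and 6 in *D. mauritiana* D to F, without passing the filter on low counts. The remaining paralogs (ATPsynCF6L, COX6CL, COX7AL2, COX7CL, ND-24L, ND-49L, ND-51L2 and ND-B14.5AL) had at most 24 counts in a library.

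The main subunits showed little difference between *D. melanogaster* and *D. mauritiana*. None of the 56 main subunits tested passed an adjusted p of 0.05 with edgeR, 1 had an unadjusted p below 0.05, and DESeq2 called none either. Of all 60 members tested 2 were called, ATPsynepsilonL and UQCR-11L, both lower in *D. melanogaster*, where the background was 18.2% of the 9767 genes tested and 10.1% for lower genes. Fold changes of the main subunits lay between -0.61 for ND-MNLL and 0.42 for ND-B12 on the log2 scale, with a median of 0.041 beside 0.0092 for all genes. Only 2 of 56 main subunits (3.57%) differed by over 0.5 on the log2 scale, ND-MNLL (-0.61 ± 0.36) and the complex III subunit UQCR-6.4 (-0.57 ± 0.38), against 36.1% of all genes, although their median SE of 0.25 was close to that of all genes, 0.23.

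UQCR-11L is counted here because the fit covered all genes, and no test is drawn from its call. The calls moved with single libraries, and so did those over all genes. The latter were 985, 1913 and 849 without *D. melanogaster* A, B and C. They were 1300, 1044 and 1818 without *D. mauritiana* A, B and C, against 1775 in the full fit. ATPsynepsilonL was called without any 1 of the 6 libraries, and UQCR-11L only without *D. melanogaster* B or *D. mauritiana* C. The number of members called was 1 without *D. melanogaster* A or *D. mauritiana* B, 2 without *D. melanogaster* B or C or *D. mauritiana* A (COX7AL, which has no count in single-end *D. mauritiana*, in place of UQCR-11L without *D. melanogaster* C or *D. mauritiana* A), and 4 without *D. mauritiana* C, when COX7AL and the complex III core protein UQCR-C2 were added.

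**Figure D3:**
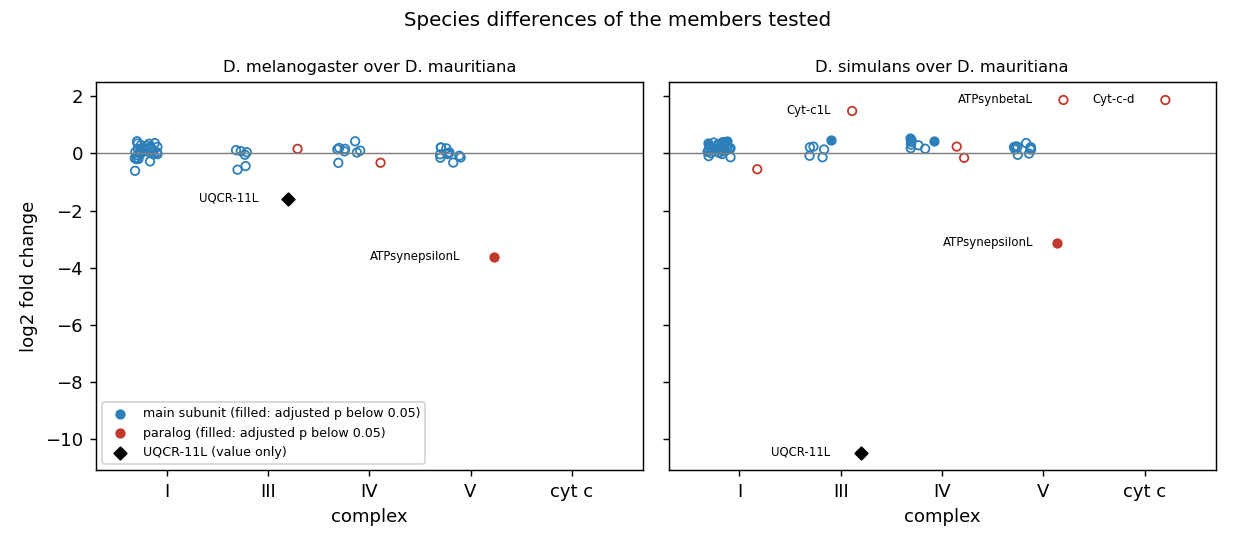
Log2 fold changes of the members tested, by complex, for *D. melanogaster* over *D. mauritiana* (left) and *D. simulans* over *D. mauritiana* (right), each point a gene, filled where the adjusted p was below 0.05. The main subunits lie between -0.61 and 0.55, and ATPsynepsilonL and UQCR-11L lie below -1.5 on both sides.

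In *D. simulans* 6 of the 56 main subunits tested were called higher than in *D. mauritiana* (10.7%), a share near the background of 12.1% of 11121 genes. Of 64 members tested 8 were called (12.5%, background 25.1%), these 6 and 2 lower ones (background 13.0%), ATPsynepsilonL and UQCR-11L. Of the 6 higher ones 3 belonged to complex I, 1 to complex III and 2 to complex IV. No main subunit was called lower. The main subunits had a median log2 fold change of 0.18 beside 0.0027 for all genes, and 49 of 56 were above 0 (87.5%, against 50.3% of all genes). The median over all genes also varied with coding length. The 24 main subunits of at most 400 nt had a median of 0.21 beside 0.13 for all genes of that length, the 24 of 401 to 1000 nt had 0.18 beside 0.081, and the 8 over 1000 nt had 0.11 beside -0.032. Only 1 of 56 (1.79%) differed by over 0.5 on the log2 scale, against 31.1% of all genes.

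COX7C, a small complex IV subunit, had 565, 500 and 483 RPKM in *D. simulans*, against 381, 327 and 377 RPKM in *D. mauritiana* D to F. The groups did not overlap, and the log2 fold change was 0.55 ± 0.096 (edgeR, adjusted p = 0.00677). Cyt-c1, which carries the heme that reduces cytochrome c, had 160, 135 and 135 RPKM in *D. simulans*, against 110, 103 and 108 RPKM in *D. mauritiana*. These did not overlap either, with a log2 fold change of 0.46 ± 0.090 (edgeR, adjusted p = 0.0105). COX4, a nuclear subunit that contacts the catalytic core of complex IV, had 483, 399 and 374 RPKM in *D. simulans*, against 329, 309 and 327 RPKM in *D. mauritiana*, a log2 fold change of 0.42 ± 0.11 (edgeR, adjusted p = 0.0303). ND-B14.5A, an accessory subunit of complex I, had 90.0, 79.2 and 78.2 RPKM in *D. simulans*, against 64.6, 55.1 and 71.3 RPKM in *D. mauritiana*, a log2 fold change of 0.41 ± 0.12 (edgeR, adjusted p = 0.0479). The other 2, named after their values were seen, were the complex I subunits ND-15 (0.40 ± 0.10, edgeR adjusted p = 0.0284) and ND-ASHI (0.36 ± 0.10, edgeR adjusted p = 0.0432).

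Only COX7C and Cyt-c1 were called without any 1 of the 6 libraries. COX4 missed the threshold without *D. mauritiana* D, E or F (edgeR, adjusted p = 0.0823, 0.0804 and 0.0581), and ND-15 and ND-ASHI missed it without *D. simulans* A or C or *D. mauritiana* D or E, at edgeR adjusted p between 0.0613 and 0.130. ND-B14.5A was called only without *D. mauritiana* F. The median over all 64 members was 0.18, and it was 0.070 without *D. simulans* A and 0.25 without *D. simulans* B. DESeq2 called 16 of 68 members, 14 of them higher in *D. simulans*. Over all genes it called 3591 of 11857, 1774 of them higher.

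ATPsynepsilonL was called lower in both species comparisons, which share no library though they share the *D. mauritiana* strain. Among all 9675 genes tested in both, 391 (4.04%) were called lower in both. UQCR-11L was among them, but it was picked by these counts and nothing is read from its calls. When all 12 libraries were fitted together, the difference between the effects of *D. melanogaster* and *D. simulans*, both over *D. mauritiana*, passed edgeR's test for none of the 56 main subunits (2 at an unadjusted p below 0.05) and not for ATPsynepsilonL, while 14.5% of all genes passed. UQCR-11L and COX7AL also passed, and nothing is read from either, since COX7AL met the filter on low counts through *D. melanogaster*, where it was high.

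More main subunits were called between the 2 sets of *D. mauritiana* libraries than between species. Of 62 members tested, 50 were called between paired-end and single-end libraries (background 45.3% of 10467 genes), 49 of them lower in the paired-end libraries (background 24.4%) and 1, ND-75, higher. The main subunits had a median log2 fold change of -0.89, beside -0.035 for all genes. The shift followed coding length. The 24 main subunits of at most 400 nt had a median of -1.12 and were all called. The 24 of 401 to 1000 nt had a median of -0.83 with 22 called, and the 8 over 1000 nt had a median of -0.23 with 2 called. Over all genes tested the same length classes had medians of -0.95, -0.55 and 0.20. The share of all genes called in each length class was not determined, so nothing is read from these counts. Across the 56 main subunits, Spearman's rho of the log2 fold change with coding length was 0.77 and Pearson's r with log2 length was 0.84, given as a description since these genes share their libraries. Over 10467 genes Spearman's rho was 0.54.

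**Figure D4:**
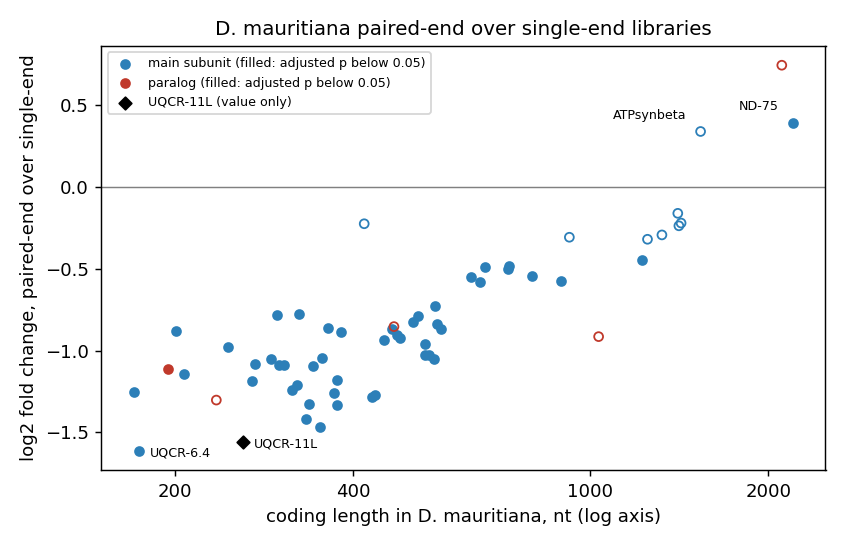
Log2 fold change of paired-end over single-end *D. mauritiana* libraries against coding length (nt, log axis), each point a member, filled where the adjusted p was below 0.05. The fold changes run from -1.61 for UQCR-6.4, of 174 nt, to 0.39 for ND-75, of 2196 nt, among the main subunits.

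UQCR-6.4, the complex III subunit with the shortest gene model, had 172, 153 and 210 RPKM in *D. mauritiana* D to F, against 682, 599 and 280 RPKM in *D. mauritiana* A to C, a log2 fold change of -1.61 ± 0.35 (edgeR, adjusted p = 0.0131). The groups did not overlap, but *D. mauritiana* C stood much nearer to the paired-end libraries than A and B did. The complex I subunits ND-B14.5B and ND-B12 followed with -1.47 ± 0.28 and -1.42 ± 0.27 (edgeR, adjusted p = 0.0117 and 0.0119). ND-75 had 69.5, 63.6 and 66.3 RPKM in *D. mauritiana* D to F, against 42.1, 50.6 and 54.7 RPKM in *D. mauritiana* A to C, a log2 fold change of 0.39 ± 0.11 (edgeR, adjusted p = 0.0266). ATPsynC, of 417 nt, departed from the trend with -0.23 ± 0.16, which was not called. With a fitted trend on coding length taken out of each library, an alternative chosen after seeing the data, it was called higher in the paired-end libraries (0.51 ± 0.11, edgeR, adjusted p = 0.0212).

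The same property varied between replicates. The ratio of the median CPM of the 24 short to that of the 8 long main subunits was 0.264, 0.246 and 0.315 in *D. mauritiana* D to F, against 0.640, 0.608 and 0.383 in *D. mauritiana* A to C. It was 0.673, 0.847 and 0.685 in *D. melanogaster* A to C, and 0.416, 0.366 and 0.367 in *D. simulans* A to C. With the length trend taken out, 7 members (and 2661 of 10467 genes in all) were called between the read types, with a member median of -0.19. Of these, 5 had been called without the offset and were lower (ND-B12, ND-B14, ND-B14.5B, ND-B22 and UQCR-11L), and 2 were new calls and higher (ATPsynC and ATPsynbeta), while ND-75 was no longer called. The number of members called also rested on single libraries. It was 0 without *D. mauritiana* E or without *D. mauritiana* B, 8 without D, 38 without F, 25 without A and 57 without C, while the member median stayed between -1.09 and -0.75. The calls over all genes moved as well, from 4743 of 10467 in the full fit. They were 534 of 9990 without E, 292 of 11073 without B and 1225 of 10016 without D. Without F, A and C they were 3419 of 10102, 3047 of 11066 and 6077 of 11108.

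Other genes of energy metabolism were read alongside. Of 15 further respiratory chain and ATP synthase genes outside the symbol rule, 14 had a row. In *D. melanogaster* over *D. mauritiana* 0 of 12 tested were called higher and 1 lower, Scox, a copper chaperone of complex IV (-0.65 ± 0.18, edgeR adjusted p = 0.0437). Over all genes 8.06% were called higher and 10.1% lower. In *D. simulans* over *D. mauritiana* 1 of 13 was called higher, levy, the COX6A subunit of complex IV (0.46 ± 0.13, edgeR adjusted p = 0.0432), and 3 lower. The background was 12.1% of all genes for higher and 13.0% for lower calls. The lower ones were Surf1, an assembly factor of complex IV (-0.61 ± 0.11, edgeR adjusted p = 0.00676), SdhA, the flavoprotein of succinate dehydrogenase (-0.21 ± 0.055, edgeR adjusted p = 0.0332), and SdhBL. SdhBL is a paralog of the iron-sulfur subunit of succinate dehydrogenase. Its value of -3.05 ± 0.46 is given with no test, because the gene met the filter on low counts through *D. mauritiana*, where it was high. SdhBL had 4, 6 and 6 counts in *D. simulans* A to C, against 40, 58 and 34 in *D. mauritiana* D to F, while the single-end groups overlapped with 11, 9 and 7 counts in *D. melanogaster* and 3, 12 and 4 in *D. mauritiana*.

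Of 10 listed genes of the citric acid cycle, which feeds electrons to the chain, 8 had a row. None was called in *D. melanogaster* over *D. mauritiana* by edgeR or DESeq2 (0 at an unadjusted edgeR p below 0.05), with a median log2 fold change of 0.012. In *D. simulans* 1, Mdh2 for mitochondrial malate dehydrogenase, was higher (0.34 ± 0.085, edgeR adjusted p = 0.027). With edgeR 18.2% of all genes were called in the *D. melanogaster* comparison and 25.1% in the *D. simulans* comparison. The 12 mitochondrially encoded genes with a row, which hold the core subunits of complexes I, III, IV and V, were not called between *D. melanogaster* and *D. mauritiana* by either tool (0 at an unadjusted edgeR p below 0.05). In *D. simulans* mt:ND4L was higher (1.35 ± 0.14, edgeR adjusted p = 0.000719) and mt:ND2 and mt:ND5 were lower (-0.53 and -0.58, edgeR adjusted p = 0.0221 and 0.0189). DESeq2 called 6 of the 12 in this comparison, against these 3 with edgeR. Over all genes DESeq2 called 3591 of 11857 and edgeR 2790 of 11121 (25.1%), so that 3 of 12 lay near the background. Between the *D. mauritiana* sets all 12 were lower in the paired-end libraries, by log2 fold changes of -3.60 to -1.99, outside the range of the nuclear main subunits.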

How the data were processed

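The authors split the 100 bp reads into 50 bp reads, merged both mates, mapped all reads with Bowtie2 to the longest coding sequence of each gene of the same species (which leaves out untranslated regions) and summed them per transcript with SAMtools 0.1.19, and they deposited these counts without normalization, next to the gene model lengths. Reads that fit several genes equally well were not set apart, so that counts of similar paralogs are uncertain. Gene symbols came from a FlyBase table. Exon numbers and positions are those of the deposited *D. mauritiana* gene models, and chromosome arms those of the BDGP6 annotation.

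The members and lists were chosen with earlier results of these data known. Counts of the reciprocal tables were tested with edgeR 4.0.16 (quasi-likelihood test, TMM scaling, filterByExpr, Benjamini-Hochberg adjustment over all genes, threshold 0.05), within a read type between species and within *D. mauritiana* between read types. Named were all paralogs with their counterparts, the main subunits called in a species comparison with the 4 largest changes in each direction (mean of at least 100 counts, length difference of at most 49 bp), the 3 largest in each direction between read types, and members called in both species comparisons. RPKM used the table totals. On simulated counts, between 99% and 100% of the genes changed by a log2 of 1 or 2 were recovered in the 3 comparisons. Only well expressed genes were changed, and the simulated replicates varied less than the real ones. The common coefficient of variation between real replicates was 0.272, 0.247 and 0.265 in the *D. melanogaster*, *D. simulans* and read type fits. The simulation therefore checks the code and does not give the power of these fits. Alternatives covered DESeq2 1.42.0, other scalings and filters, the other annotations, length offsets, a replicate block and leaving out each library. The length trend offset and a joint fit of all 12 libraries were added after seeing the data. Promoter motifs and sequences were not analysed here.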

Additional observations from a re-analysis of the deposited data

Results flagged for a closer look

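For 2 members the fitted effect of *D. melanogaster* over *D. mauritiana* stood far from that of *D. simulans* over *D. mauritiana*, in a joint edgeR fit of all 12 libraries chosen after seeing the data. For UQCR-11L the difference of the log2 effects was 8.78 ± 0.61 (SE), given as a description because the gene was picked by its counts. For COX7AL it was 8.68, likewise given with no test, because the gene met the filter on low counts through *D. melanogaster*, where it was high. That fitted value depends on the prior count, since the 3 single-end *D. mauritiana* libraries had 0 counts, and it is no bound. Each effect was measured with its own read type, so that species and read type cannot be told apart in this difference.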

How the results depend on the processing

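In *D. melanogaster* over *D. mauritiana*, 2 members were called (1775 of 9767 genes in all), and between 1 and 4 when each library was left out in turn (849 to 1913 genes). A replicate block, with 2 members called and 1478 against 1775 genes in all, did not change this, and the replicate letters did not pair the samples, since the correlations of same-lettered libraries were -0.24, 0.20 and 0.16. In *D. simulans* over *D. mauritiana*, 8 members were called (2790 of 11121 genes in all) and between 4 and 9 with a library left out (1633 to 2673 genes). DESeq2 called 16 (3591 of 11857 genes). The coding length trend as an offset, a setting chosen after seeing the data, gave 15 (3221 of 11121 genes). Between the read types in *D. mauritiana*, 50 members were called (4743 of 10467 genes in all) and between 0 and 57 with a library left out (292 to 6077 genes). With the coding length trend as an offset 7 were called (2661 genes). That offset also turned the log2 fold change between the read types to 0.034, against -1.11, for ATPsynepsilonL and to 0.51, against -0.23, for ATPsynC, and it brought UQCR-6.4 to -0.42 and ND-75 to 0.062, neither called. The causes were not tested. Upper-quartile scaling moved the median of all genes between the read types to -0.14, against -0.035. All other settings run left the 3 counts of members called within 1.5 times. In the published annotation, 76 of the 79 members had a row in the *D. melanogaster* table and 73 in the *D. simulans* table, where ATPsynepsilonL was among those without a row. Paralogs with a few counts per library gave no usable fold change at this depth.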
